A study of Arabidopsis thaliana with 14 samples.

Results

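The receptor-like protein (RLP) genes of Arabidopsis thaliana were compared between ibm1-1 and Col-0 seedlings in 2 growth conditions. The family was taken by gene name as a list of 49 loci, with earlier results of these data known. In the soil counts 44 of the 49 were among the 21912 genes listed, and in the sterile medium counts all 49 were among the 33602 genes listed. RLP3, RLP6, RLP15, RLP25 and RLP50 were not listed in soil. After a filter on low counts 43 members were tested in each condition. RLP11 was filtered out in both, and RLP15, RLP25, RLP28, RLP39 and RLP48 were filtered out in medium. Beside the 40 members tested in both conditions, RLP28, RLP39 and RLP48 were tested in soil alone, and RLP3, RLP6 and RLP50 in medium alone.

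RLPs are cell surface receptors with an extracellular domain of leucine-rich repeats, a membrane-spanning segment and a short cytoplasmic tail without a kinase domain. Immune RLPs associate with the adaptor kinase SOBIR1, recruit the co-receptor BAK1 when a microbial ligand binds, and signal through cytoplasmic kinases and, for RLP23, the EDS1-PAD4-ADR1 module. Other members act in development, such as CLV2, which works in stem cell signaling together with the membrane pseudokinase CRN. Many RLP genes lie next to each other in the genome.

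The genotypes were ibm1-1, which carries a point mutation in IBM1, a histone H3K9 demethylase gene, in the Col-0 background, and wild-type Col-0. Soil seedlings of both genotypes spent 5 days on Murashige and Skoog (MS) plates and 10 days in soil and were harvested whole, with 3 biological replicates of pooled seedlings per genotype. Medium seedlings of both genotypes were 7 days old, grew on sterile MS medium and were sampled in 2 replicates per genotype. The comparison asked how RLP transcripts differ when IBM1 is impaired, with and without soil, and ibm1-1 was the only mutant allele used.

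The libraries held 19957585 to 27001069 counts in soil and 18260809 to 21411230 in medium. The transcript of IBM1 itself was lower in ibm1-1, by a log2 fold change of -0.42 in soil and -0.60 in medium, which checks the labels in part only, since the mutation is a point mutation. Transcripts of whole seedlings cannot tell fewer cells of a type from less RNA per cell. Summed over 6 leaf markers, ibm1-1 had 34142 to 41824 normalized counts per library size (CPM) against 41859 to 44562 in Col-0 in soil, and 22533 to 23407 against 24971 to 27846 in medium. Summed over 8 root markers, ibm1-1 had 691 to 729 CPM against 633 to 659 in Col-0 in soil, and 3053 to 3649 against 2731 to 2957 in medium. Most of the root sum was PYK10, with means of 646 CPM in ibm1-1 and 554 in Col-0 in soil, and 3248 and 2707 in medium. The other root markers all had log2 fold changes below 0 in medium, from -0.14 for SHR to -1.82 for TIP2;3. In soil they went both ways, from -1.06 for TIP2;3 to 0.71 for NRT2.1. Of these 14 markers only TIP2;3 of the root list was a DEG, lower in both conditions, and all had counts in every library. By adjusted p alone 3 leaf markers were lower and 4 root markers higher in soil, and 1 leaf marker higher and 1 lower in medium. Their part in the results on RLPs was not tested.

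In soil, 20 of the 43 tested RLPs were upregulated DEGs in ibm1-1, and none was a downregulated DEG. DEGs were genes with more than a 2-fold change whose adjusted p was below 0.05, where p came from the quasi-likelihood test of edgeR and was adjusted by Benjamini-Hochberg over all 20082 genes tested. Among all genes tested in soil 5.87% were upregulated and 2.39% downregulated, against 46.5% upregulated RLPs. The 43 log2 fold changes ran from -0.87 to 6.50 with a median of 0.58, while the median over all genes was 0.00. By adjusted p alone 26 members were higher and 5 lower, and over all genes these shares were 25.4% and 25.9%. In 29 members every ibm1-1 replicate lay above every Col-0 replicate and in 4 every one lay below, against 28.5% and 28.7% of all genes. The count of 0 downregulated members was also 0 with DESeq2 and limma-trend, and 5 members were lower at an unadjusted p below 0.05.

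In medium, 21 of the 43 tested RLPs, 48.8%, were upregulated in ibm1-1 and none was downregulated. Among the 20871 genes tested there, 5.53% were upregulated and 1.53% downregulated. The log2 fold changes of the members ran from -0.85 to 4.73 with a median of 0.97, against -0.01 over all genes. By adjusted p alone 25 were higher and 4 lower, against 11.5% and 7.77% of all genes. The 2 ibm1-1 replicates lay above both Col-0 replicates in 30 members and below both in 7, and over all genes in 30.8% and 31%. No member was called lower with DESeq2 or limma-trend either, and 7 were lower at an unadjusted p below 0.05. With DESeq2 the upregulated members numbered 18, without RLP3, RLP43 and RLP52.

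Part of these calls came from genes near 0 in Col-0. In soil RLP7, RLP20, RLP21, RLP24, RLP28, RLP39 and RLP53 would not have passed the filter on low counts in Col-0 alone, and all 7 were called higher. Of the other 36 members 13 were upregulated, with a median log2 fold change of 0.46. In medium 10 members, RLP2, RLP7, RLP20, RLP21, RLP23, RLP24, RLP40, RLP41, RLP43 and RLP53, would not have passed in Col-0 alone. Of the other 33 members 12 were upregulated, with a median of 0.42. Of the 10, all but RLP2 were called higher. Entry through ibm1-1 alone favors members that are higher there, so the counts and medians over all tested members are a description only. The share of all genes upregulated under the same restriction was not computed, so the counts of 13 of 36 and 12 of 33 have no background beside them.

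Across both conditions 14 of the 40 members tested in both were upregulated in each, 35% of them, where 2.79% of all genes tested in both were. The 14 were RLP7, RLP19, RLP20, RLP21, RLP23, RLP24, RLP34, RLP35, RLP38, RLP40, RLP41, RLP43, RLP52 and RLP53. Of these, RLP7, RLP20, RLP21, RLP24 and RLP53 would not have passed the filter in Col-0 alone in either condition. RLP23, RLP40, RLP41 and RLP43 would not have passed in Col-0 alone in medium. Their entry favors members higher in ibm1-1, so the share of 35% is a description only. RLP22, RLP36, RLP37 and RLP42 were called in soil only and RLP1, RLP32, RLP33 and RLP46 in medium only. Without ibm1-1 replicate 2 of medium, RLP37 and RLP42 were called there too (1.02 and 1.01, adjusted p = 1.16e-04 and 3.51e-04 in edgeR). RLP28 and RLP39, tested in soil alone, were upregulated there, and RLP3, RLP6 and RLP50, tested in medium alone, were upregulated there. The remaining 18 members tested in both were called in neither.

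The RLPs with a known microbial ligand differed from each other. RLP23 (AT2G32680, chr2:13859769-13862614, minus strand) is the receptor for nlp20, a peptide of the NLP proteins of bacteria, fungi and oomycetes. In soil it had 43.9, 40.8 and 45.2 CPM in ibm1-1, against 3.72, 2.78 and 3.56 CPM in Col-0. The lowest ibm1-1 replicate was far above the highest Col-0 replicate. Its log2 fold change was 3.67 (SE 0.0868, adjusted p = 1.24e-24, edgeR's quasi-likelihood test), and it supplied 18.5% of the net gain of the family's summed CPM in soil. Medium levels were 11.1 and 12.1 CPM in ibm1-1, against 0.606 and 0.32 CPM in Col-0, a log2 fold change of 4.64 (SE 0.272, adjusted p = 8.87e-06 in edgeR). The groups were again apart, and the difference of the genotype effect between the conditions was not called (-0.97, SE 0.518, adjusted p = 0.224, limma's voom).

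RLP42 (AT3G25020, chr3:9116684-9119804, minus strand), also known as RBPG1, recognizes fungal endopolygalacturonases. Its soil level was 28.9, 30.3 and 30.7 CPM in ibm1-1, against 12.8, 11.7 and 10.5 CPM in Col-0, with no overlap and a log2 fold change of 1.36 (SE 0.0717, adjusted p = 3.96e-16 in edgeR). Its medium level was 10.9 and 8.86 CPM in ibm1-1 and 5.16 and 5.66 CPM in Col-0. This change of 0.87 passed the adjusted p (0.00811 in edgeR) but not the fold change of 2, and the difference between the conditions was not called (0.51, adjusted p = 0.145, voom). RLP42 shares 31.6% of its 50-base words with other places in the genome, mainly at AT3G24929, a gene that overlaps RLP40 on the opposite strand. RLP40 in turn shares its words mainly with RLP42, so reads of RLP42 may be divided between loci.

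RLP1 and RLP32 were upregulated in medium only. RLP1 (AT1G07390, chr1:2269622-2274901, plus strand), or ReMAX, detects eMax of Xanthomonas bacteria. Its soil level was 3.15, 2.69 and 3.19 CPM in ibm1-1 against 3.02, 3.72 and 2.63 CPM in Col-0, overlapping ranges with a log2 fold change of -0.04 (SE 0.164, adjusted p = 0.865 in edgeR). In medium RLP1 had 13.4 and 14.2 CPM in ibm1-1 against 5.41 and 6.8 CPM in Col-0. Here the genotypes were apart, with a log2 fold change of 1.17 (SE 0.165, adjusted p = 0.00123 in edgeR), and the effect differed between the conditions by -1.19 (SE 0.248, adjusted p = 0.00185, voom).

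RLP32 (AT3G05650, chr3:1644882-1648742, minus strand) recognizes the bacterial translation initiation factor IF1. In soil it had 19.1, 20.1 and 19 CPM in ibm1-1 and 18, 19.1 and 20 CPM in Col-0, overlapping, with a log2 fold change of 0.03 (SE 0.0674, adjusted p = 0.738 in edgeR). The medium libraries gave 8.85 and 5.65 CPM in ibm1-1 and 3.39 and 3.2 CPM in Col-0, a log2 fold change of 1.14 (SE 0.242, adjusted p = 0.0102 in edgeR). The call ended without ibm1-1 replicate 1, where the change was 0.78 (adjusted p = 0.0682), and without Col-0 replicate 2 (adjusted p = 0.0513). The effect differed between the conditions by -1.07 (SE 0.281, adjusted p = 0.0107, voom), and this call also ended without ibm1-1 replicate 1 of medium (-0.74, adjusted p = 0.247).

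RLP30 (AT3G05360, chr3:1530668-1533361, minus strand), the receptor required for the response to SCFE1 of the fungus Sclerotinia sclerotiorum, was called in neither condition. It had 3.36, 4.07 and 3.55 CPM in ibm1-1 against 3.48, 3.09 and 3.3 CPM in Col-0 in soil, overlapping, with a log2 fold change of 0.15 (SE 0.148, adjusted p = 0.43 in edgeR). In medium its 12.2 and 11.1 CPM in ibm1-1 lay just above the 7.48 and 10.5 CPM in Col-0, with a log2 fold change of 0.37 (SE 0.182, adjusted p = 0.182 in edgeR). Among the 5 members with a known ligand, RLP23 was thus the only member upregulated in both conditions.

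Of the 4 members known from immune phenotypes, RLP43 had the largest log2 fold change in each condition. RLP43 (AT3G28890, chr3:10895977-10898900, minus strand) has been named as a disease resistance gene. In soil it had 8.48, 7.47 and 8.05 CPM in ibm1-1, against 0.968, 0.576 and 0.635 CPM in Col-0, with a wide gap between the genotypes. The log2 fold change was 3.42 (SE 0.179, adjusted p = 2.99e-16 in edgeR). In medium the gene was close to the detection limit. It had 11 and 10 counts in ibm1-1 (0.58 and 0.554 CPM) against 1 and 0 counts in Col-0, a ratio of 23.6 with a 95% interval of 3.8 to 978 from counting error alone. The fitted log2 fold change of 4.24 (SE 0.943, adjusted p = 0.0127 in edgeR) depends on the prior count. The call was not kept with DESeq2 (adjusted p = 0.0672) or without Col-0 replicate 2 (adjusted p = 0.097), and without either ibm1-1 replicate the gene was not tested.

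RLP52 (AT5G25910, chr5:9038860-9041377, plus strand), which contributes to resistance against powdery mildew, had 2.21, 2.29 and 2.55 CPM in ibm1-1 and 0.697, 0.576 and 0.635 CPM in Col-0 in soil. The genotypes did not overlap, and the log2 fold change was 1.87 (SE 0.237, adjusted p = 9.55e-08 in edgeR). In medium its 2.9 and 2.27 CPM in ibm1-1 stood against 0.91 and 1.23 CPM in Col-0, a log2 fold change of 1.26 (SE 0.319, adjusted p = 0.0224 in edgeR). The medium call was lost with DESeq2 (adjusted p = 0.0712), without ibm1-1 replicate 1 (0.132) and without either Col-0 replicate (0.0972 and 0.0516).

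RLP3 (AT1G17250, chr1:5901169-5903439, minus strand), or RFO2, is a Fusarium oxysporum resistance gene and was listed in medium only. It had 1.63 and 2.49 CPM in ibm1-1 against 0.606 and 0.913 CPM in Col-0, with no overlap and a log2 fold change of 1.42 (SE 0.384, adjusted p = 0.0297 in edgeR). DESeq2 did not call it (adjusted p = 0.08), nor did edgeR without ibm1-1 replicate 2 (0.191) or without either Col-0 replicate (0.124 and 0.0613). Its whole length is overlapped by a gene on the opposite strand, AT1G17255.

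RLP51 (AT4G18760, chr4:10307810-10309591, minus strand), or SNC2, went the other way. A gain-of-function allele of SNC2 activates defense constitutively. In soil its 10.4, 10.5 and 10.6 CPM in ibm1-1 all lay below the 17.9, 15.7 and 14.9 CPM in Col-0, with a log2 fold change of -0.63 (SE 0.0823, adjusted p = 1.61e-07 in edgeR), short of the fold change of 2. In medium it had 15.5 and 11.5 CPM in ibm1-1 and 19.5 and 16.1 CPM in Col-0, and the change of -0.39 (SE 0.171) did not pass (adjusted p = 0.139 in edgeR). The difference between the conditions was not called (adjusted p = 0.498, voom).

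The growth-related members were not called. CLV2 (AT1G65380, chr1:24286742-24289329, plus strand) had 11.2, 12.8 and 12.7 CPM in ibm1-1 against 12.8, 12.7 and 11.6 CPM in Col-0 in soil, and 12.4 and 9.81 against 10.9 and 12.4 CPM in medium. The genotypes overlapped in both conditions, with log2 fold changes of -0.02 (SE 0.0832, adjusted p = 0.89 in edgeR) and -0.07 (SE 0.164, adjusted p = 0.815). RLP44 (AT3G49750, chr3:18450422-18451659, minus strand) links cell wall state to brassinosteroid signaling. It had 4.96, 4.27 and 4.42 CPM in ibm1-1 and 3.64, 5.03 and 4.87 CPM in Col-0 in soil, overlapping, with a log2 fold change of 0.02 (SE 0.141, adjusted p = 0.9 in edgeR). In medium its 4.37 and 2.6 CPM in ibm1-1 lay below the 6.42 and 4.93 CPM in Col-0, and the change of -0.69 (SE 0.266) did not pass (adjusted p = 0.0996 in edgeR). Without ibm1-1 replicate 1 it was -1.12 and called lower (adjusted p = 0.0115).

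**Figure D1:**
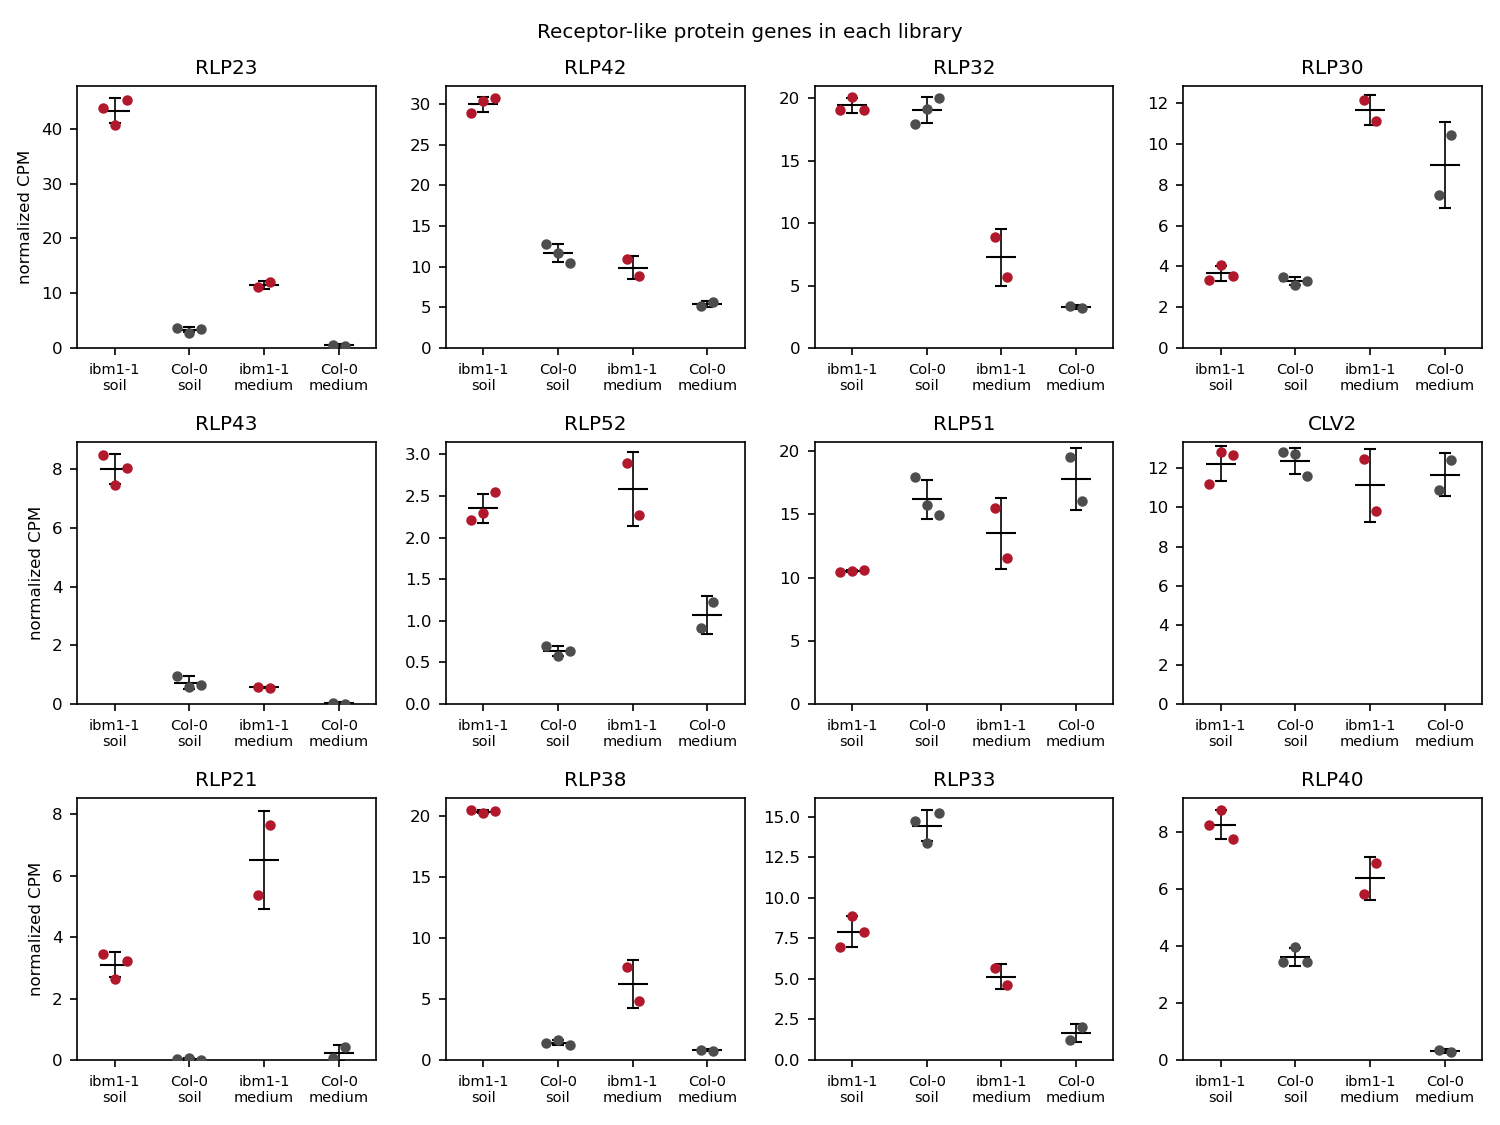
Normalized CPM (vertical axes, from 0) of 12 RLP genes in every library, with ibm1-1 left of Col-0 in soil and then in medium. Points are replicates, horizontal ticks are means and bars are the SD. RLP23, RLP21 and RLP38 sit far above Col-0 in ibm1-1 in both conditions, RLP43 does so in soil and is near 0 in medium, CLV2 overlaps in both, and RLP33 lies below Col-0 in soil (6.96 to 8.9 against 13.4 to 15.2 CPM) and above it in medium (4.6 and 5.69 against 1.26 and 2.05 CPM).

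In soil the 4 members with the largest fold changes, RLP21, RLP28, RLP20 and RLP38, have no assigned ligand, and in medium RLP21 had the largest, followed by RLP23. RLP21 (AT2G25470, chr2:10838294-10842016, plus strand) had 84, 67 and 81 counts in the ibm1-1 soil libraries, against 1, 1 and 0 counts in Col-0. These correspond to 3.44, 2.65 and 3.23 CPM in ibm1-1 and 0.0387, 0.0524 and 0 CPM in Col-0, so the gene was near silent in Col-0. The normalized ratio was 106, with a 95% interval of 29.1 to 882 from counting error alone, and the fitted log2 fold change was 6.50 (adjusted p = 1.17e-13 in edgeR). Medium levels were 5.37 and 7.65 CPM in ibm1-1 against 0.0505 and 0.411 CPM in Col-0, a log2 fold change of 4.73 (SE 0.474, adjusted p = 1.86e-04 in edgeR). The genotypes were apart in both conditions.

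RLP20 (AT2G25440, chr2:10826735-10829402, plus strand), which neighbors RLP21, had 2.5, 2.1 and 1.75 CPM in ibm1-1 and 0.0387, 0.105 and 0.212 CPM in Col-0 in soil, without overlap, with a log2 fold change of 4.12 (SE 0.386, adjusted p = 2.31e-10 in edgeR). In medium it had 0.843 and 1.22 CPM in ibm1-1 and 0.152 and 0.0456 CPM in Col-0, a log2 fold change of 3.34 (SE 0.648, adjusted p = 0.00673 in edgeR). Without Col-0 replicate 2 the medium call ended (2.71, adjusted p = 0.0615). RLP28 (AT2G33080, chr2:14031998-14034433, plus strand) had 18, 29 and 19 counts in ibm1-1 and 3, 0 and 0 counts in Col-0 in soil. Its ratio was 20.1, with an interval of 6.6 to 100 from counting error, and its fitted log2 fold change was 4.18 (adjusted p = 9.59e-07 in edgeR). In medium RLP28 had 7 counts in a single ibm1-1 replicate and 0 in the 3 other libraries, and was not tested.

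RLP38 (AT3G23120, chr3:8227222-8229619, minus strand) varied little between soil replicates, with 20.5, 20.2 and 20.4 CPM in ibm1-1 against 1.43, 1.62 and 1.23 CPM in Col-0. Its log2 fold change there was 3.84 (SE 0.115, adjusted p = 3.51e-22 in edgeR). In medium it had 7.64 and 4.82 CPM in ibm1-1 and 0.859 and 0.73 CPM in Col-0, again apart, with a log2 fold change of 2.97 (SE 0.32, adjusted p = 2.64e-04 in edgeR). RLP7 (AT1G47890, chr1:17643976-17647107, plus strand) had 1.8, 1.42 and 1.12 CPM in ibm1-1 against 0.194, 0.314 and 0.254 CPM in Col-0 in soil, without overlap and with a log2 fold change of 2.52 (SE 0.349, adjusted p = 4.33e-07 in edgeR). In medium its 24 and 16 counts in ibm1-1 stood against 1 count in each Col-0 replicate, a ratio of 22.5 with an interval of 5.84 to 192 from counting error. The fitted log2 fold change was 4.32 (adjusted p = 0.00238 in edgeR).

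RLP40 (AT3G24982, chr3:9106000-9109971, minus strand) changed much more in medium than in soil. In medium it had 5.85 and 6.93 CPM in ibm1-1 and 0.354 and 0.274 CPM in Col-0, a log2 fold change of 4.33 (SE 0.315, adjusted p = 2.57e-05 in edgeR). In soil it had 8.27, 8.78 and 7.77 CPM in ibm1-1 and 3.45, 3.98 and 3.43 CPM in Col-0, a log2 fold change of 1.20 (SE 0.121, adjusted p = 9.82e-10 in edgeR). The groups were apart in both, with the widest gap in medium. RLP40 shares 26.9% of its 50-base words with other places and overlaps AT3G24929 on the opposite strand over 3607 bases, so these values may hold reads of other loci.

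Of the other members upregulated in both conditions, RLP24, RLP41 and RLP53 changed by 3.32, 2.43 and 3.41 on the log2 scale in soil and by 4.14, 2.46 and 3.54 in medium, and mutants of RLP41 have been described as more sensitive to abscisic acid. For RLP24 in medium, 23 and 28 counts in ibm1-1 stood against 2 and 1 in Col-0, a ratio of 19.1 with a counting interval of 6.19 to 95.9. RLP34, RLP35 and RLP19 changed by 1.78, 1.64 and 1.1 in soil and by 1.11, 1.22 and 1.87 in medium. The medium call of RLP34 ended without ibm1-1 replicate 1 (0.74) and that of RLP35 without Col-0 replicate 1 (0.91, adjusted p = 0.056 in edgeR). Among members called in a single condition, RLP22, RLP36, RLP37 and RLP39 changed by 1.39, 1.34, 1.44 and 2.05 in soil, and RLP6, RLP46 and RLP50 by 1.57, 1.37 and 2.16 in medium. The difference between the conditions was not called for RLP22 and RLP37 (adjusted p = 0.255 and 0.0958, voom).

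By adjusted p alone 5 of the 43 tested members were lower in ibm1-1 in soil and 4 of 43 in medium. Over all genes tested 25.9% were lower in soil and 7.77% in medium. RLP45 was lower by adjusted p in both conditions, with 9.5, 8.98 and 10.1 CPM in ibm1-1 against 15.1, 14 and 15 CPM in Col-0 in soil, and 8.06 and 8.42 against 12.6 and 16.9 CPM in medium. Its log2 fold changes were -0.63 (adjusted p = 1.63e-07 in edgeR) and -0.85 (adjusted p = 0.0086). The ranges did not overlap in either condition, and without Col-0 replicate 1 of medium the change was -1.04 and called lower. The others below the adjusted p threshold in soil were RLP14, RLP33, RLP48 and RLP51, and in medium RLP13, RLP27 and RLP29, all short of the fold change of 2.

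To compare levels between genes, CPM were divided by exon length in kilobases (RPKM). RLP4 and RLP54 had the 2 highest levels in each genotype and condition. RLP54 had 28.4 RPKM in ibm1-1 and 22.9 in Col-0 in soil, and 14.1 and 10.5 in medium, while RLP4 had 27.7 and 29.2 in soil and 25.4 and 24.4 in medium. RLP54 changed by 0.31 in soil and 0.42 in medium on the log2 scale, below the fold change of 2, and the log2 fold changes of RLP4, -0.08 and 0.06, did not pass (adjusted p = 0.172 and 0.771 in edgeR). Together these 2 genes made up 24.4% of the family's summed CPM in ibm1-1 and 35.1% in Col-0 in soil, and 24.6% and 29.4% in medium.

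RLP23 and RLP38 moved up the order of levels. RLP23 ranked 3 of 44 by RPKM in ibm1-1 and 23 in Col-0 in soil (15.2 against 1.18 RPKM), and 12 of 49 against 36 in medium (4.07 against 0.163 RPKM). RLP38 ranked 7 in ibm1-1 and 28 in Col-0 in soil (8.5 against 0.596 RPKM). The median RPKM of the listed members was 2.32 in ibm1-1 and 1.20 in Col-0 in soil, and 1.62 and 0.772 in medium. The summed level of the listed members was 602 ± 12.6 CPM in ibm1-1 and 386 ± 3.54 CPM in Col-0 in soil (SD, n = 3 each), 1.56 times as high. In medium it was 413 ± 31.7 CPM in ibm1-1 and 303 ± 30.0 CPM in Col-0 (SD, n = 2 each), 1.36 times as high, without overlap of the replicates. The upregulated members supplied 93.5% of the net gain in soil and 84.3% in medium. They were called higher from the same libraries, so a large share follows in part from that choice. RLP23, RLP34 and RLP19 gave the most in soil (40.0, 31.5 and 29.9 CPM) and RLP19 and RLP23 in medium (12.2 and 11.1 CPM). RLP54, which was not called, gained 9.98 CPM in medium.

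**Figure D2:**
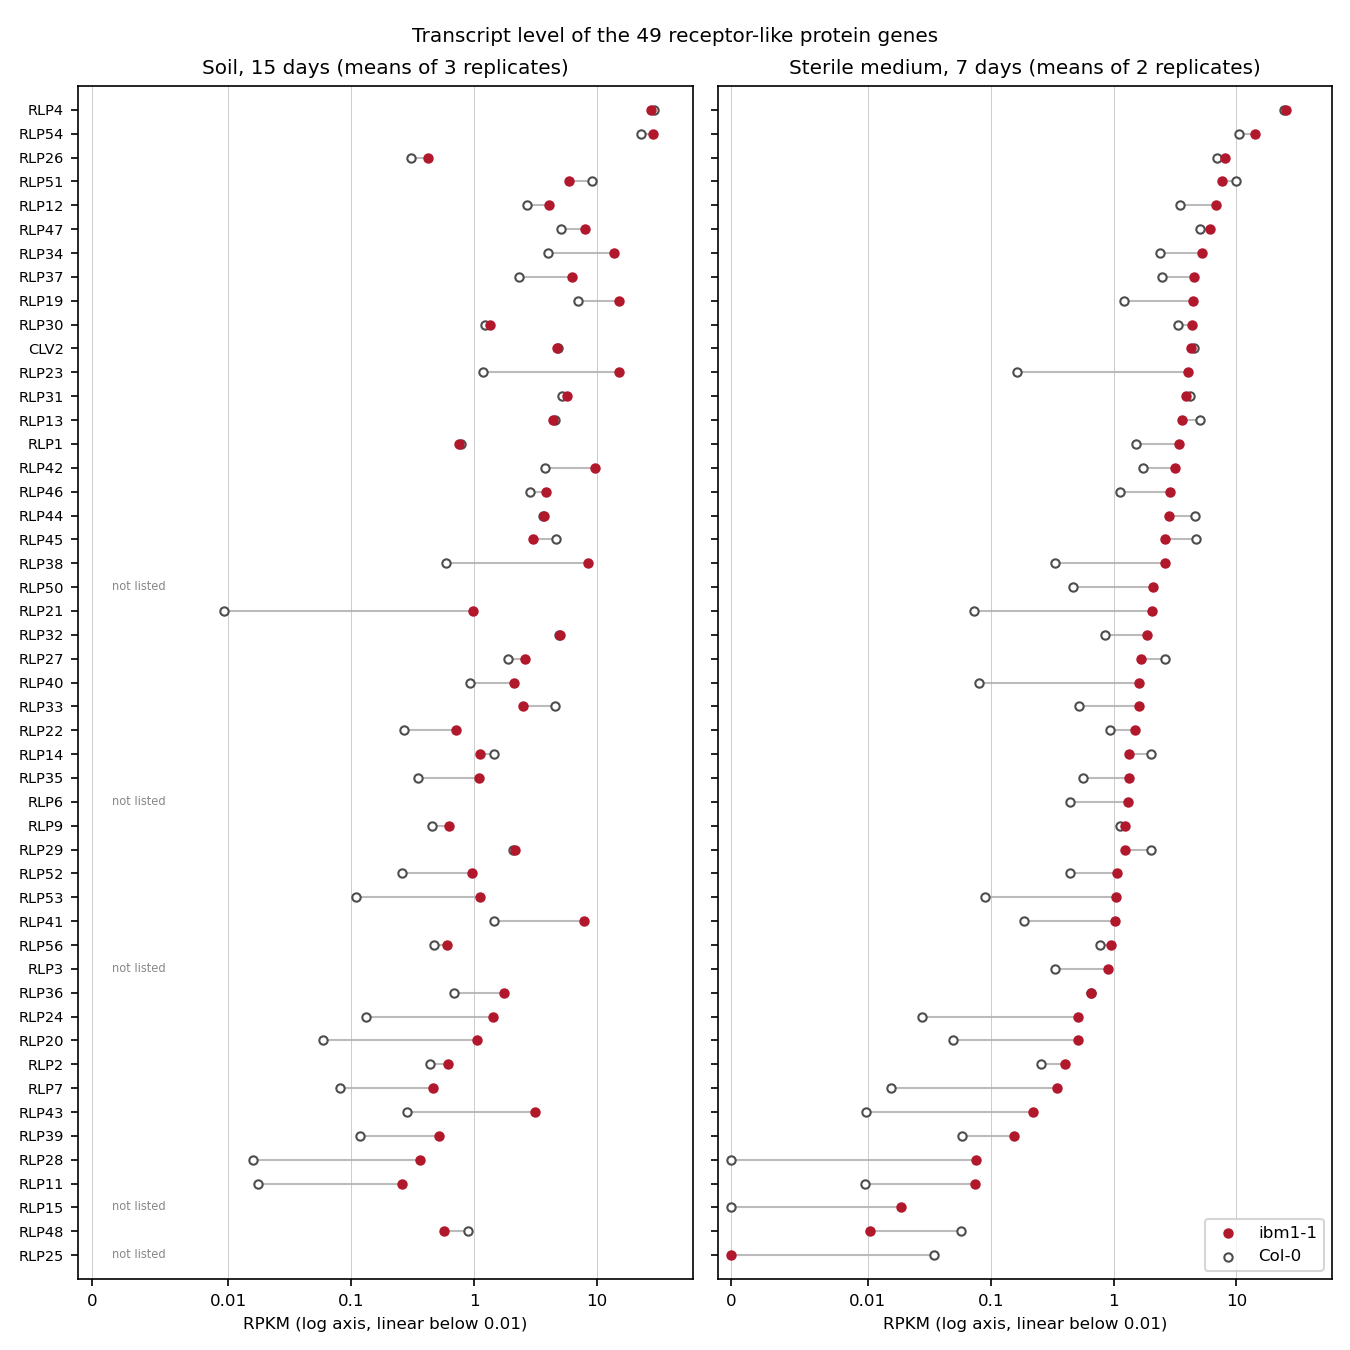
Mean level of each of the 49 RLP genes in RPKM (horizontal log axes, linear below 0.01) in ibm1-1 (filled) and Col-0 (open), in soil (means of 3 replicates) and medium (means of 2), ordered by the ibm1-1 level in medium. RLP4 and RLP54 lead in both conditions (27.7 and 28.4 RPKM in ibm1-1 against 29.2 and 22.9 in Col-0 in soil), while long lines such as those of RLP21 and RLP23 mark genes that are low in Col-0.

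The difference of the genotype effect between the conditions was tested across all 10 libraries (limma's voom, adjusted p below 0.05). Taken with its sign, the effect was larger in soil for RLP27, RLP34 and RLP36. It was larger in medium for RLP1, RLP19, RLP32, RLP33, RLP40 and RLP46. Of 44 members tested this was 3 and 6, where 7.72% and 9.91% of all 20192 genes were called in these directions, so the shares were near those of all genes. Of the 9 calls, those of RLP1, RLP33 and RLP40 held without each library in turn, and each of the other 6 ended without at least 1 library of medium. The conditions also differ in age and growth, and the sources disagree on whether read processing differed, and these cannot be told apart from the condition.

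RLP33 (AT3G05660, chr3:1648843-1652149, minus strand) reversed its direction between the conditions. In soil it had 6.96, 8.9 and 7.89 CPM in ibm1-1 and 14.8, 13.4 and 15.2 CPM in Col-0, a log2 fold change of -0.87 (SE 0.0928, adjusted p = 3.08e-09 in edgeR). In medium it had 5.69 and 4.6 CPM in ibm1-1 and 1.26 and 2.05 CPM in Col-0, a log2 fold change of 1.62 (SE 0.279, adjusted p = 0.00371 in edgeR). The genotypes were apart in both conditions, in opposite order. The difference of the effect was -2.51 (SE 0.384, adjusted p = 8.76e-05, voom) and was called under all 14 alternatives run, as were the differences of RLP1 and RLP40. RLP40 differed by -3.04 (SE 0.527, adjusted p = 3.13e-04, voom) and RLP27 by 1.12 (SE 0.264, adjusted p = 0.00464, voom). RLP27 also had opposite signs, with log2 fold changes of 0.47 in soil and -0.64 in medium (adjusted p = 0.00124 and 0.0428 in edgeR).

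**Figure D3:**
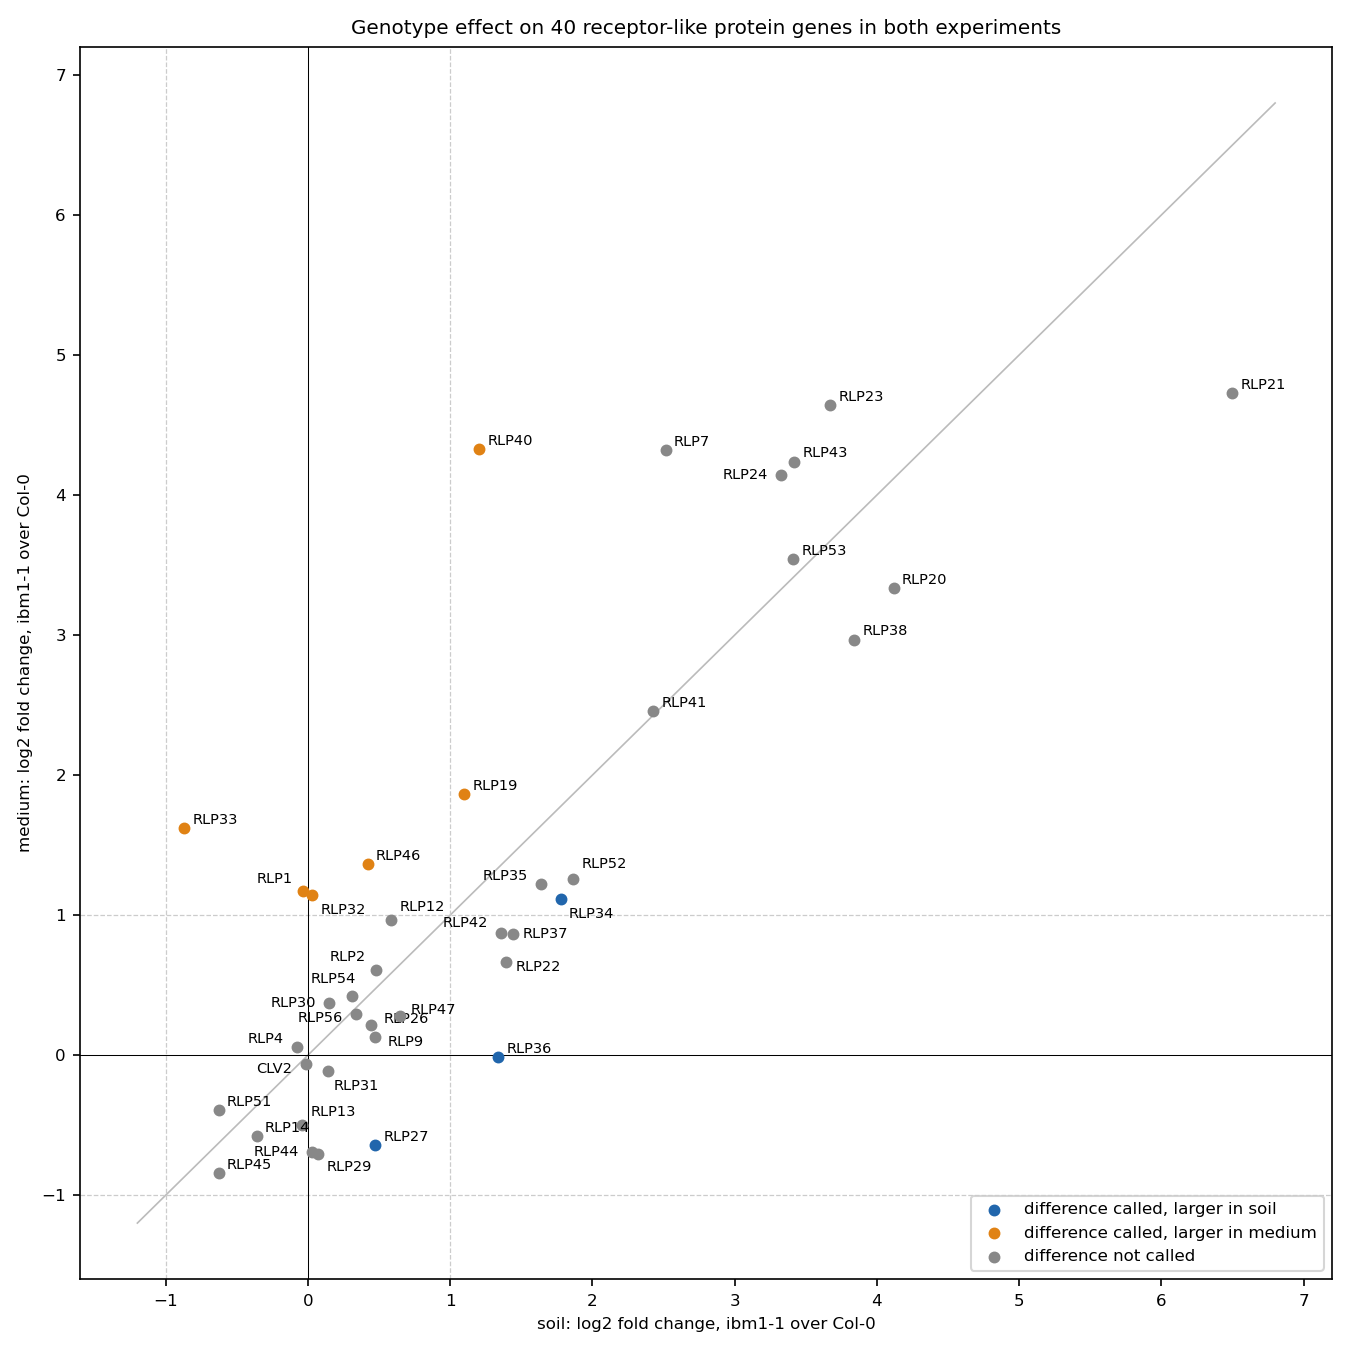
Log2 fold change of ibm1-1 over Col-0 in medium (vertical axis) against soil (horizontal axis) for the 40 members tested in both conditions, with a grey line of equal change and dashed lines at a fold change of 2. Blue and orange points are members whose difference was called by voom (larger in soil, 3, and larger in medium, 6), and RLP33 is at -0.87 in soil and 1.62 in medium.

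Members that lie near each other were set side by side. With a gap below 20000 bases as the limit, 31 members formed 12 groups. RLP20 and RLP21 were upregulated in both conditions, as were RLP34 and RLP35, and all of RLP39, RLP40, RLP41 and RLP42 were upregulated in soil. RLP34 and RLP35 share 18.6% and 14.9% of their 50-base words with other places, mainly each other, and RLP39 to RLP42 share 13.4% to 31.6%, so reads of these neighbors may not be fully separate, while RLP20 and RLP21 share none. No tested member of the groups of RLP30 and RLP31 and of RLP13, RLP14 and RLP15 was called in either condition. RLP32 and RLP33, which lie 100 bases apart on the same strand and share no 50-base word, were upregulated in medium only. The group of RLP24 to RLP28 was mixed. RLP24 and RLP28 were upregulated in soil, RLP26 (0.423 against 0.306 RPKM in soil, and 8.11 against 6.98 RPKM in medium, ibm1-1 against Col-0) was not called, and RLP27 was higher by adjusted p in soil and lower in medium. By position, 14 of 26 tested members with a neighbor and 6 of 17 without were upregulated in soil, and 13 of 25 and 8 of 18 in medium. Among all genes tested 5.87% were upregulated in soil and 5.53% in medium. The counts include members that would not have passed the filter in Col-0 alone, and the difference by position was not tested.

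**Figure D4:**
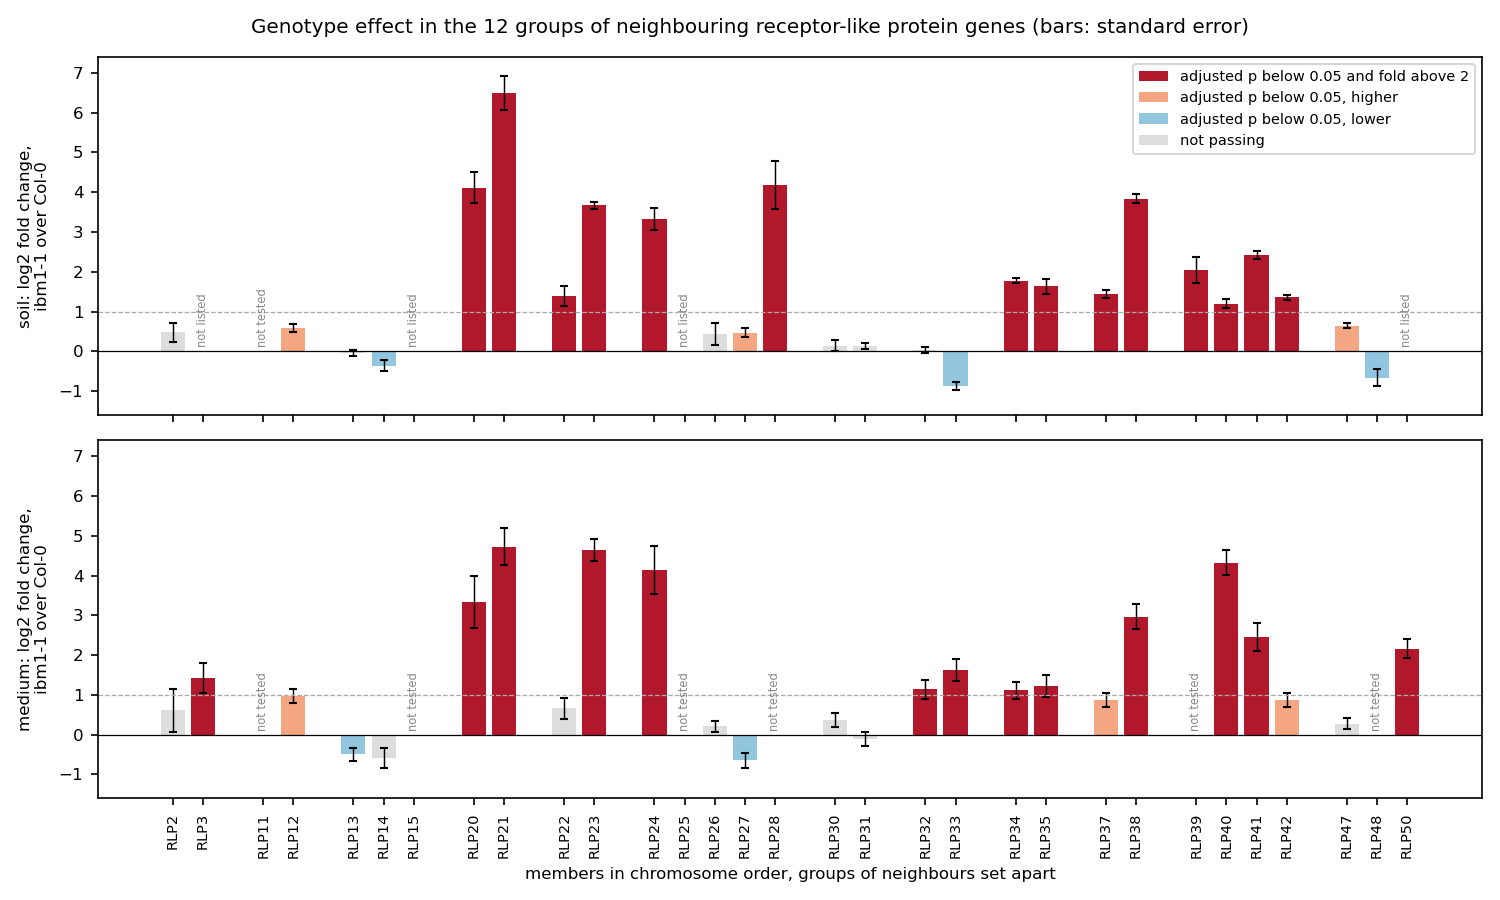
Log2 fold change of ibm1-1 over Col-0 (vertical axes, with standard error bars) for the 31 members that lie near another member, in soil above medium, in chromosome order with the 12 groups set apart. Dark red bars are upregulated members, paler bars pass the adjusted p only, and grey bars do not pass. RLP20 and RLP21 are raised together in both conditions, while RLP32 and RLP33 are raised in medium only.

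Sequence sharing and overlap with other genes touched part of the family. 9 members share over 10% of their 50-base words with other places in the genome, among them RLP34 (18.6%), RLP40 and RLP42, and 15 overlap a gene on the opposite strand. The library kit kept the strand of the transcript, but the strand setting of the counting is not given in the sources used here. Of the 28 members with neither an opposite-strand overlap nor 1% or more of shared words, 24 were tested in each condition. Of these 8 were upregulated in soil and 9 in medium, against 5.87% and 5.53% of all genes tested. In both conditions 6 of 23 were upregulated, against 2.79% of all genes tested in both. The upregulated ones include RLP7, RLP20, RLP21 and RLP24, which would not have passed the filter in Col-0 alone in either condition. RLP28 is also among them in soil and would not have passed there, so these counts are a description only. RLP23 overlaps AT2G32670 on the opposite strand by 6 bases only. RLP37, RLP46 and RLP50 are overlapped by opposite-strand genes over their whole length.

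The 300 bases before each gene start were read from the RefSeq TAIR10.1 genome, and TTGAC, the core of the W-box bound by WRKY factors, was counted on both strands (TTGAC or GTCAA). It occurred in 38 of the 49 members, 77.6%, and in 50.4% of the 27444 protein-coding nuclear genes, and at least 2 copies in 28.6% and 17.9%. Of members with the core 17 of 33 tested were upregulated in soil and 20 of 33 in medium, and of those without it 3 of 10 and 1 of 10. Among all genes tested 5.87% and 5.53% were upregulated, and this share was not split by the core. Members that would not have passed the filter in Col-0 alone all carry the core, except RLP2 in medium. Their entry favors members higher in ibm1-1, so the split is a description only and was not tested. A match is a run of letters and no evidence of binding. The windows of RLP21, RLP23, RLP38 and RLP43, which were upregulated in both conditions, and of RLP33, which reversed its direction, are shown from 5′ to 3′ on the strand of the gene because their results stand out above, and capitals mark the core on either strand.
RLP21 (chr2:10837994-10838293, plus strand): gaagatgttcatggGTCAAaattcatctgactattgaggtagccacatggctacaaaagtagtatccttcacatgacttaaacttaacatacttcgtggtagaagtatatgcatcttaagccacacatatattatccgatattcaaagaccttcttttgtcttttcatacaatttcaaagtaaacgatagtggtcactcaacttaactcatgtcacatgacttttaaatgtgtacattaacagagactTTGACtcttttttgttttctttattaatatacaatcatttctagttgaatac
RLP23 (chr2:13862615-13862914, minus strand): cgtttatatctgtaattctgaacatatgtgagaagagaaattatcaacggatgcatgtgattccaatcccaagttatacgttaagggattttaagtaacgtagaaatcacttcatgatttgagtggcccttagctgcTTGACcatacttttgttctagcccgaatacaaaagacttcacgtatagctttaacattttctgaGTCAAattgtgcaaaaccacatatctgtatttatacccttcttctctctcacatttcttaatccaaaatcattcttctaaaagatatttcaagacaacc
RLP38 (chr3:8229620-8229919, minus strand): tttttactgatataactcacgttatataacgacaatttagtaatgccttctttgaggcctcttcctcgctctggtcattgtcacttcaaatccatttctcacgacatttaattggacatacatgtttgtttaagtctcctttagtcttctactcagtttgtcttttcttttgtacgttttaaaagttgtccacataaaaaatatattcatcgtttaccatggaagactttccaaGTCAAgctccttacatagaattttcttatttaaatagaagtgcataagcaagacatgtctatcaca
RLP43 (chr3:10898901-10899200, minus strand): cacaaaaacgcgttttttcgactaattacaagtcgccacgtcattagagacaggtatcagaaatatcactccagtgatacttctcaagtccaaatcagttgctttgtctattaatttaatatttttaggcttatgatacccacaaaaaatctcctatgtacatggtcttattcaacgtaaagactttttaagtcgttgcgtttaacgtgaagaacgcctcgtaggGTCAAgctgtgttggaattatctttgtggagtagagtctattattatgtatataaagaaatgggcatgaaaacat
RLP33 (chr3:1652150-1652449, minus strand): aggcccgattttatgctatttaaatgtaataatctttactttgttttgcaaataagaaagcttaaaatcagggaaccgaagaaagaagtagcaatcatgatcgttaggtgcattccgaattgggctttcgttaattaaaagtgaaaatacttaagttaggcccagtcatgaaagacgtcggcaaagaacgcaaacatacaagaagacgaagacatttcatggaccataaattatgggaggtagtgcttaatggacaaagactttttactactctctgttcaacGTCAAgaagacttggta

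The genes known to act with RLPs were described as a list. Of 24 partner genes, all tested in both conditions, edgeR called 3 upregulated in soil (PAD4, ADR1 and BDA1) and 3 in medium (ADR1, BDA1 and WRKY70). Among all genes tested 5.87% and 5.53% were upregulated. In medium BDA1 would not have passed the filter on low counts in Col-0 alone. The log2 fold changes of the list ran from -0.35 to 2.25 in soil, with a median of 0.20, and from -0.58 to 3.60 in medium, with a median of 0.29. By adjusted p alone 14 were higher and 5 lower in soil, and 10 higher and 1 lower in medium, against 25.4% and 25.9% of all genes in soil and 11.5% and 7.77% in medium.

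SOBIR1, the adaptor kinase of immune RLPs, was higher by adjusted p in both conditions, by 0.79 in soil (SE 0.044, adjusted p = 1.52e-15 in edgeR) and by 0.63 in medium (SE 0.117, adjusted p = 0.00527), short of the fold change of 2. The co-receptor BAK1 was lower in soil, at -0.35 (adjusted p = 2.08e-07 in edgeR), and at 0.18 in medium (adjusted p = 0.284), and this difference between the conditions was called (-0.52, SE 0.108, adjusted p = 0.00172, voom). The cytoplasmic kinase BIK1 changed by 0.44 and 0.47 and the oxidase RBOHD by 0.53 and 0.94 on the log2 scale, all past the adjusted p.

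In the module downstream of RLP23, the lipase-like proteins EDS1 and PAD4 were higher by adjusted p in soil, by 0.73 and 1.43. In medium PAD4 was higher by 0.73 and the change of EDS1, 0.14, did not pass (adjusted p = 0.482 in edgeR). Both effects were larger in soil, by 0.59 and 0.72 (adjusted p = 0.00246 and 0.00203, voom), and the call for EDS1 ended without ibm1-1 replicate 2 of medium (0.50, adjusted p = 0.0567). The helper receptor ADR1 rose by 1.54 in soil and 1.24 in medium, and its homologs ADR1-L1 and ADR1-L2 by 0.58 and 0.53 in soil and 0.52 and 0.62 in medium, past the adjusted p only. BDA1, which acts downstream of SNC2, rose by 2.25 (SE 0.0794, adjusted p = 2.01e-20 in edgeR) in soil and by 3.60 (SE 0.436, adjusted p = 5.29e-04) in medium. SNC2 itself was lower by adjusted p in soil. In medium BDA1 had 151 and 68 counts in ibm1-1 against 10 and 10 in Col-0, and entered the test through ibm1-1 alone. WRKY70, which also acts downstream of SNC2, rose by 0.57 in soil, by adjusted p only, and by 2.09 in medium, a difference of -1.50 (SE 0.197, adjusted p = 1.49e-05, voom).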

How the data were processed

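The members and all gene lists were chosen with earlier results of these data known, from gene names and general knowledge. The authors deposited raw counts of reads per gene, without normalization. By their methods, soil reads were trimmed with SolexaQA and cutadapt, mapped with TopHat and counted with HTSeq, and medium reads went through Trimmomatic, HISAT and HTSeq, all on TAIR10, while the submitters' processing notes name Trimmomatic 0.36, HISAT2 2.1.0 and HTSeq 0.9.1 for both. Which applies to the soil counts is not settled, so multiply mapped reads may have been treated differently in the 2 conditions.

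Each condition was fitted alone by genotype with edgeR 4.0.16 under R 4.3.3, using filterByExpr at its minimum count of 10, TMM factors and the quasi-likelihood test, and Benjamini-Hochberg adjustment over all genes tested. CPM are TMM-normalized. Standard errors were back-calculated from edgeR's F statistic and the log2 fold change, and are no separate estimate of spread. The genotype effect in soil minus that in medium was tested with voom with quality weights, 1 weight per condition, in limma 3.58.1 on all 10 libraries. Ratios against 1 to 3 counts carry 95% intervals for counting error only. The biological coefficient of variation was 0.0390 in soil and 0.106 in medium. Exon lengths, positions and upstream windows come from RefSeq TAIR10.1, matched by locus, and 50-base words were compared with the whole genome. The steps were tested on simulated counts.

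All 49 members could be named. Per-library values were given for members with a known ligand or mutant phenotype and the 5 with the largest rise in each condition. Values of other members and of partner genes were chosen after they were seen. Alternatives were DESeq2 1.42.0 and its size factors, library size only, a filter at a mean CPM of 5 or none, limma-trend, the replicate block, no fold-change threshold, an unweighted or edgeR interaction, and each library left out. The bisulfite samples were not analysed here.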

Additional observations from a re-analysis of the deposited data

Results flagged for a closer look

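The genotype effect differed between soil and medium for 9 members, by limma's voom at an adjusted p below 0.05 over all genes tested. The effect in soil minus that in medium, on the log2 scale, was -1.19 for RLP1, -0.79 for RLP19, -1.07 for RLP32, -2.51 for RLP33, -3.04 for RLP40 and -0.93 for RLP46, and 1.12 for RLP27, 0.71 for RLP34 and 1.3 for RLP36. RLP33 and RLP27 had effects of opposite sign in the 2 conditions. The calls of RLP1, RLP33 and RLP40 were kept under all 14 alternatives. The call of RLP36 ended without any of 4 soil or 3 medium libraries, that of RLP34 without any of 3 medium libraries, and that of RLP46 without any of 3 medium libraries. RLP19 lost its call without any of 3 medium libraries and with library size only, and RLP27 and RLP32 without ibm1-1 replicate 1 of medium. The conditions differ in age and growth, which cannot be told apart, and the sources disagree on whether read processing differed.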

How the results depend on the processing

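The counts of 20 upregulated members in soil and 21 in medium, and the median log2 fold changes, were recomputed under each alternative. With a mean CPM of at least 5, 22 members were tested in each condition, and 8 in soil and 6 in medium were upregulated, with medians of 0.47 and 0.33, since members of low level left the test. With library size only the soil median was 0.70, where the median of all genes was 0.12. With no fold-change threshold 5 members were lower in soil and 4 in medium. Leaving out each library gave 20 to 21 upregulated members in soil (median 0.56 to 0.66) and 17 to 22 in medium (median 0.73 to 1.15), with 0 to 1 lower in medium. Members larger in soil numbered 3, but 6 without quality weights, 7 with an edgeR interaction term, 7 with library size only and 1 to 4 without each library, and those larger in medium numbered 6, or 3 to 6 without each library. The edgeR interaction added RLP23 (-0.96), RLP42 (0.50), RLP29, RLP37 and RLP47, and RLP37 was added by 5 alternatives. RLP29 and RLP47 were also added without quality weights, with library size only and without 1 library each. RLP13 was added with library size only and without Col-0 replicate 1 of medium.

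Changes near 0 took the other sign, and none passed the test. In soil, library size only gave 0.080 for RLP1, 0.10 for CLV2 and 0.043 for RLP4, and a mean CPM of at least 5 gave 0.0065 for CLV2. Without each library the soil changes ran from -0.15 to 0.087 for RLP1, -0.062 to 0.048 for CLV2, -0.015 to 0.070 for RLP32 and -0.12 to 0.10 for RLP44, and the medium changes from -0.25 to 0.092 for CLV2, -0.39 to 0.52 for RLP36 and -0.038 to 0.15 for RLP4. RLP36 in medium was 0.064 with limma-trend and 0.021 with the replicate block. In soil the replicate numbers showed no pairing of the samples, with correlations between same-numbered samples of -0.02, 0.018 and 0.017. In medium this correlation was 0.147, and only 2 pairs exist. With 2 replicates the different-numbered samples must give the same value with the opposite sign, so pairing in medium cannot be decided. With the replicate block 20 members were upregulated in soil and 21 in medium, and 4 differences were larger in soil and 6 in medium. With 2 replicates per genotype the medium calls of low members depend on single libraries.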
